A study of Homo sapiens with 4 samples.

Results

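The ATF4 amino acid response was followed in 320IWR cells, a tankyrase inhibitor-resistant subline, and in COLO-320DM cells, the colorectal cancer line from which it was derived. The members are 34 genes listed by their known place in this response, and a probe set was taken for a member where its annotation gave that symbol and no other. By this rule 33 of the 34 members were measured, by 71 of 54613 probe sets, among 19775 genes on the array. MARS1, the methionyl-tRNA synthetase gene, was not measured by the rule, since its 3 probe sets also carry the symbol of a microRNA gene.

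The 320IWR line was obtained by keeping COLO-320DM cells continuously in IWR-1, an inhibitor of the poly(ADP-ribose) polymerase tankyrase, and is 1 resistant line with no independently selected counterpart on the arrays. Both lines were grown in the same serum-containing medium, and the labels do not state whether IWR-1 was present in the 320IWR dishes when RNA was taken. Total RNA was hybridised to GeneChip Human Genome U133 Plus 2.0 arrays, 2 for 320IWR cells and 2 for COLO-320DM cells. Nothing in the labels says that the arrays of a line came from separate cultures, so every p-value below reflects the scatter of these arrays alone, and that scatter may be technical.

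ATF4 is a transcription factor whose protein is made mainly when the translation factor eIF2 is phosphorylated, which happens when a cell lacks amino acids or its endoplasmic reticulum is overloaded. mTORC1, the kinase complex that promotes growth, also raises ATF4 activity. ATF4 pairs with C/EBP proteins on a composite DNA element and switches on amino acid synthesis, amino acid uptake and the loading of tRNAs. Since ATF4 is controlled largely at translation, the level of its own transcript is a poor guide to its activity, and the transcripts of its targets are the usual readout.

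The composite element is shown first, because it is the sequence that ties several of these genes to ATF4. Its core, TGATGNAA on either strand, was searched for in the RefSeq promoter table (build GRCh38.p14), in windows of 300 bases that run from 250 bases before to 50 bases after a start site. The table held 53 windows for 30 of the 34 members, and 12 of these 30 genes (40.0%) had a match in at least 1 window, against 4.46% of all 27305 genes in the table. For single windows the share was 26.4% for the members and 3.62% for all. Windows of a gene can overlap, and a match is a run of letters and not a site shown to be bound. The E-box CACGTG, a different motif searched in the same way on both strands, was found in 4 of the 30 genes (13.3%), against 8.77% of all genes. The 5 members below are printed 5′ to 3′ on the strand of the gene, with the core in capitals, because ASNS carries the classical element and the other genes are among those whose values are given on every array. The other genes with the core were MTHFD1L, SLC7A1, SLC1A4, SLC1A5, SLC38A1, GARS1 and MARS1. The core starts at -68 from a start site in ASNS (chr7:97872457-97872488, minus strand), at -191 in ATF3 (chr1:212565204-212565235, plus strand), at -209 in CHAC1 (chr15:40953250-40953281, plus strand), at 38 in SLC3A2 (chr11:62881724-62881748, plus strand) and at -187 in AARS1 (chr16:70289674-70289705, minus strand). In CHAC1, SLC3A2 and AARS1 the core is on the opposite strand and appears as its reverse complement.
ASNS: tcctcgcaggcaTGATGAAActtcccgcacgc
ATF3: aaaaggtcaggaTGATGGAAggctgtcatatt
CHAC1: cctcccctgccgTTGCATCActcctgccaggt
SLC3A2: gtgcaggactccTTACATCAgctcc
AARS1: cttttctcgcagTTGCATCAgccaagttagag

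No transcript of the amino acid response passed the test between the lines, and about as many members were higher as lower. A gene is represented by its brightest probe set, values are RMA intensities, and a gene is said to rise or fall at an adjusted p under 0.05 with at least a 2-fold difference in limma's fit over all 54613 probe sets. By this rule 0 of 33 members rose and 0 fell in 320IWR cells, where 0.192% of all genes rose and 0.399% fell. At an unadjusted p under 0.05, 1 member was higher (5.91% of all genes) and 2 were lower (6.36% of all genes). The median log2 fold change over the members was 0.02, with 17 genes higher and 16 lower in 320IWR cells, and it was also 0.02 over all genes. Both arrays of 320IWR cells lay above both arrays of COLO-320DM cells for 7 members and below them for 4, and this held for 21.0% and 17.5% of all genes. The members' counts are near what these shares of all genes would give. For 25 of the 33 members the 95% interval of the difference lay within 2-fold in either direction (75.8%, against 87.6% of all genes), and for 23 the log2 fold change itself was smaller than 0.25 in size (69.7%, against 73.3% of all genes). An exact permutation test of 2 arrays against 2 cannot give a two-sided p under 0.333, so the single-gene tests below are those of limma. Taken one by one, 40 of the 71 member probe sets were higher and 31 lower in 320IWR cells, and limma called 0. Among them, 2 were higher and 3 lower at an unadjusted p under 0.05. That limit was met by 5305 of all 54613 probe sets, both directions together. Of the 21 members with several probe sets, 5 had probe sets of both signs, namely ASNS, ATF5, PSPH, SESN2 and SLC1A4.

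**Figure D1:**
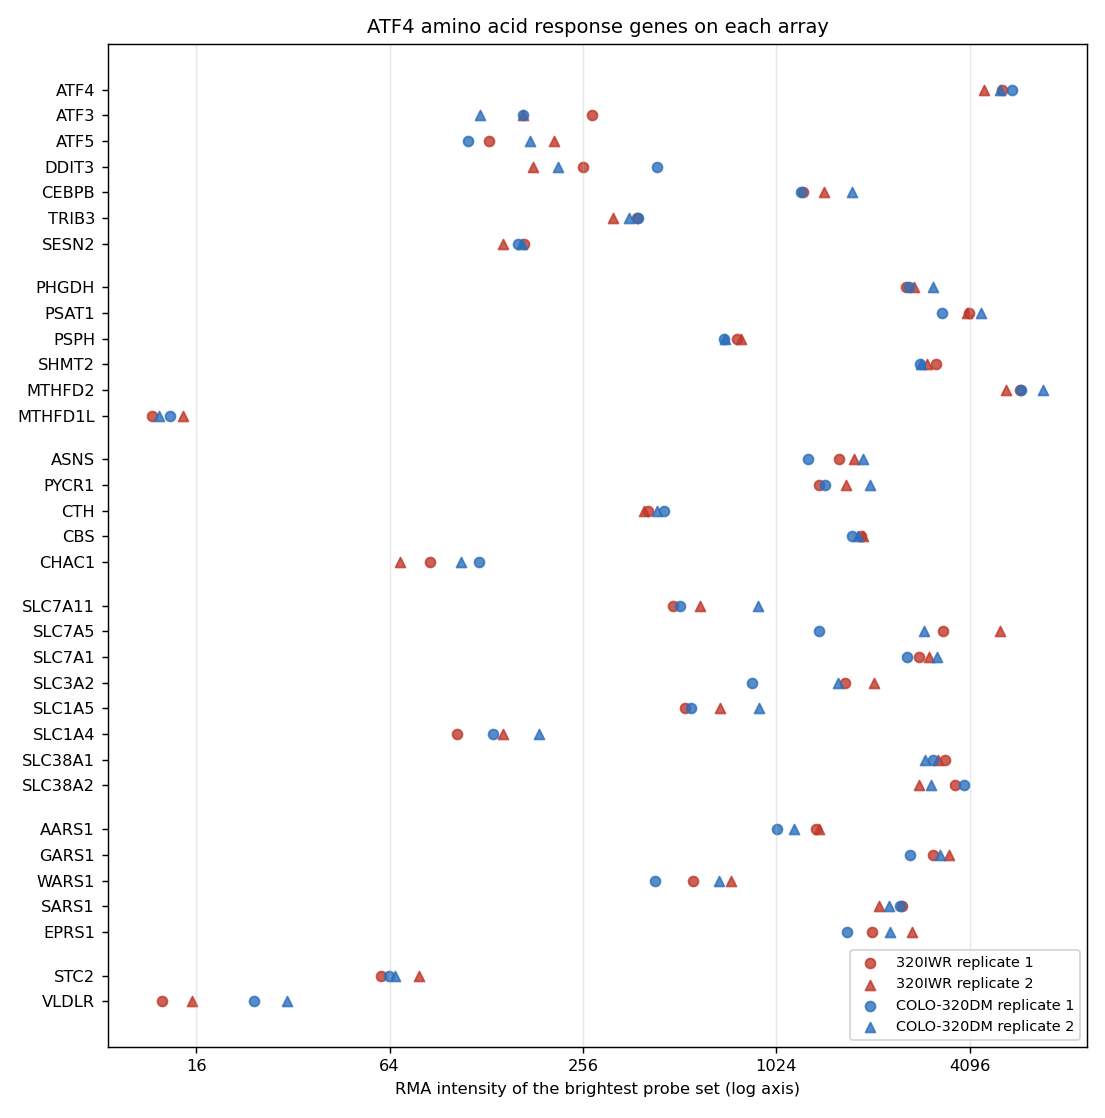
RMA intensity of each of the 33 measured members on the 4 arrays, on a log axis, grouped by role from transcription factors at the top to secreted factor and receptor at the bottom, where red marks 320IWR cells, blue COLO-320DM cells, circles replicate 1 and triangles replicate 2. Levels of different genes come from different probe sets and cannot be ranked against each other, and red and blue points are apart for 11 members, 7 higher and 4 lower in 320IWR cells.

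Among the transcription factors and signal regulators, no gene passed the test, and the arrays of the lines overlapped for the brightest probe set of each of the 7. A dimmer probe set did not overlap in ATF3 (higher in 320IWR cells), ATF5 or TRIB3 (lower, with log2 fold changes of -0.16 and -0.07). ATF4 itself had intensities of 5183 and 4554 on the 320IWR arrays, against 5557 and 5085 on the COLO-320DM arrays. Its log2 fold change was -0.13 with a 95% interval of -0.48 to 0.22 (limma, adjusted p = 0.92), so that a 2-fold difference in either direction lay outside the interval. ATF3, a stress-induced factor that ATF4 activates, had 274 and 166 in 320IWR cells, against 166 and 122 in COLO-320DM cells. The lower 320IWR array thus equalled the higher COLO-320DM array, and the log2 fold change was 0.58 with an interval of -0.19 to 1.36 (limma, adjusted p = 0.678). Another probe set of ATF3 had 146 and 122 in 320IWR cells, against 106 and 96.8 in COLO-320DM cells. Its log2 fold change was 0.40 (unadjusted p = 0.0455, adjusted p = 0.496 by limma), and the dimmest ATF3 probe set had 0.10. DDIT3, which encodes the pro-apoptotic factor CHOP, had 257 and 178 in 320IWR cells, against 437 and 214 in COLO-320DM cells. A single COLO-320DM array, replicate 1, stood above the other 3 arrays. Replicate 1 was the higher array in both lines, and between same-numbered arrays DDIT3 was lower in 320IWR cells both times. The log2 fold change of DDIT3 was -0.51 (interval -1.53 to 0.51, limma adjusted p = 0.849). It was 0.0036 without COLO-320DM replicate 1 and -1.03 without COLO-320DM replicate 2. Either omission leaves the replicate numbers unbalanced between the lines. The 4 remaining regulators had log2 fold changes of 0.23 for ATF5, a factor related to ATF4, -0.13 for CEBPB, a C/EBP partner of ATF4, -0.09 for TRIB3, a pseudokinase that restrains ATF4, and -0.07 for SESN2, a sestrin that senses leucine and inhibits mTORC1.

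The enzymes of serine, glycine and one-carbon metabolism all had intervals inside 2-fold, 6 of 6, and none passed the test. PHGDH, the first enzyme of serine synthesis from a glycolytic intermediate, had intensities of 2596 and 2750 in 320IWR cells, against 2657 and 3159 in COLO-320DM cells (log2 fold change -0.12, interval -0.49 to 0.25, limma adjusted p = 0.944). The next enzymes of the route, PSAT1 and PSPH, had log2 fold changes of 0.07 and 0.15. SHMT2, which converts serine to glycine in mitochondria, had 0.11, and MTHFD2, which carries the released one-carbon unit onward, had -0.20. The arrays did not overlap for PSPH and SHMT2, both higher in 320IWR cells, or for MTHFD2, which was lower, and none of these differences reached 0.25 on the log2 scale in the brightest probe set. Dimmer probe sets of these genes had 0.09 and 0.32 for SHMT2, -0.35 for MTHFD2, and 0.23 and -0.38 for PSPH. All but the 0.09 of SHMT2 were larger in size than the value of the brightest probe set. Only the PSPH probe set with -0.38 was opposite in sign to the brightest probe set of its gene. It read from 38.4 to 57.1, near the array's median of 41.5. MTHFD1L, the mitochondrial enzyme that releases formate, had a log2 fold change of 0.04. Its intensities were 11.7 and 14.6 in 320IWR cells and 13.3 and 12.2 in COLO-320DM cells, under the array's median of 41.5, so its probe set says little about the gene.

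Among the other enzymes of amino acid and glutathione metabolism, 4 of 5 had log2 fold changes under 0.25 in size. ASNS, asparagine synthetase, whose promoter element is printed above, had intensities of 1610 and 1790 in 320IWR cells, against 1284 and 1909 in COLO-320DM cells. Both 320IWR arrays lay between the COLO-320DM arrays, and the log2 fold change was 0.12 (interval -0.46 to 0.70, limma adjusted p = 0.984). A second ASNS probe set, with intensities from 5.45 to 5.63 in 320IWR cells and from 6.27 to 7.14 in COLO-320DM cells, had a log2 fold change of -0.27. These intensities lie far under the array's median of 41.5, so this probe set says little about the gene. PYCR1, the last enzyme of proline synthesis, had -0.15. The transsulfuration enzymes CBS and CTH, which make cysteine from homocysteine, had log2 fold changes of 0.07 and -0.15. Their brightest probe sets did not overlap between the lines, CBS higher and CTH lower in 320IWR cells, while their dimmer probe sets overlapped. CHAC1, which degrades glutathione and is a sensitive ATF4 target, was the exception in size, with 85.8 and 68.9 in 320IWR cells, against 121 and 107 in COLO-320DM cells. Both 320IWR arrays lay below both COLO-320DM arrays, and the log2 fold change was -0.57 (interval -0.995 to -0.14, unadjusted p = 0.0198, adjusted p = 0.351 by limma). It did not pass the test.

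Amino acid transporters held the largest difference of all members, that of SLC7A5, which encodes the light chain LAT1 of the main transporter for leucine and other large neutral amino acids. SLC7A5 had intensities of 3373 and 5079 in 320IWR cells, against 1388 and 2961 in COLO-320DM cells. SLC3A2, which encodes the heavy chain that carries LAT1 to the cell surface, had 1681 and 2065 in 320IWR cells, against 858 and 1592 in COLO-320DM cells. In both genes each 320IWR array lay above each COLO-320DM array, but the arrays of a line were themselves far apart, and replicate 2 was the higher in both lines. SLC7A5 averaged 4226 ± 1207 in 320IWR cells and 2175 ± 1113 in COLO-320DM cells (SD, n = 2 each). The log2 fold change was 1.03 for SLC7A5 (interval -0.06 to 2.12, limma adjusted p = 0.551) and 0.67 for SLC3A2 (interval -0.17 to 1.52, limma adjusted p = 0.649), and neither passed the test. The values changed with the COLO-320DM arrays kept: without replicate 1 of that line they were 0.48 and 0.23, and without its replicate 2 they were 1.58 and 1.12. Either omission leaves the replicate numbers unbalanced between the lines. Each gene was measured by 1 probe set. SLC7A11, the cystine transporter that feeds glutathione synthesis and shares the heavy chain with SLC7A5, differed in the other direction. It had 487 and 593 in 320IWR cells, against 514 and 900 in COLO-320DM cells (log2 fold change -0.34, interval -1.12 to 0.44, limma adjusted p = 0.887), and its other 2 probe sets had -0.51 and -0.47. Of the remaining carriers, the neutral amino acid exchangers SLC1A4 and SLC1A5 had log2 fold changes of -0.37 and -0.24. The glutamine carriers SLC38A1 and SLC38A2 had 0.13 and -0.11. For SLC38A1 the brightest probe set and a dimmer one (0.26) did not overlap and were higher in 320IWR cells, while its other probe sets overlapped. SLC7A1, the carrier of arginine and lysine, had 0.02, and its 5 probe sets had values from 0.02 to 0.14. The 5 probe sets of SLC1A4 ranged from -0.49 to 0.06.

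**Figure D2:**
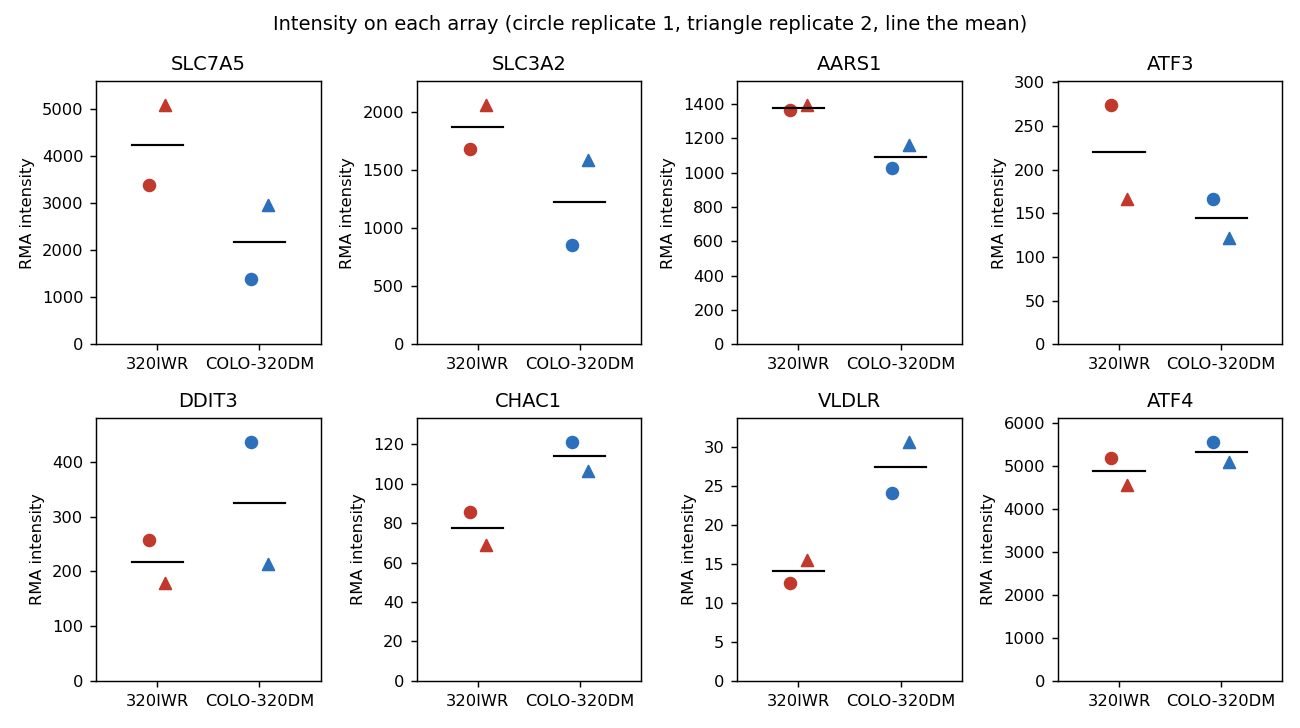
RMA intensity on each array for 8 members, with a linear axis that starts at 0 in each panel, where 320IWR cells (red) stand left of COLO-320DM cells (blue), circles are replicate 1, triangles replicate 2 and the line is the mean. The lines do not overlap for SLC7A5, SLC3A2 and AARS1 (higher in 320IWR cells) or for CHAC1 and VLDLR (lower), while ATF4, ATF3 and DDIT3 overlap or meet.

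Of the 5 measured tRNA synthetases, which join amino acids to their tRNAs, 4 were higher in 320IWR cells, with a median log2 fold change of 0.25 for the group. This median changed with the arrays kept. It was 0.016 without COLO-320DM replicate 1, 0.077 without 320IWR replicate 2 and 0.43 without COLO-320DM replicate 2. Each omission also leaves the replicate numbers unbalanced between the lines. Between same-numbered arrays the 4 genes were higher in 320IWR cells both times, while SARS1 was higher in replicate 1 and lower in replicate 2. AARS1, the alanyl-tRNA synthetase, had intensities of 1364 and 1396 in 320IWR cells, against 1027 and 1161 in COLO-320DM cells. It was the member that was higher at an unadjusted p under 0.05, with a log2 fold change of 0.34 and an interval of 0.0034 to 0.67 (unadjusted p = 0.0484, adjusted p = 0.509 by limma), and it did not pass the test. WARS1, EPRS1 and GARS1, for tryptophan, for glutamate with proline and for glycine, had log2 fold changes of 0.26, 0.25 and 0.16. Their brightest probe sets overlapped between the lines. A dimmer probe set of WARS1 (0.26) and one of EPRS1 (0.25) did not overlap and were higher in 320IWR cells. The 3 probe sets of EPRS1 gave values between 0.25 and 0.29. SARS1, the seryl-tRNA synthetase, had -0.04 in its brightest probe set and -0.57 in the other, which had 226 and 200 in 320IWR cells, against 356 and 279 in COLO-320DM cells. The SARS1 probe sets therefore disagree.

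VLDLR, a lipoprotein receptor induced by ATF4, had the lowest unadjusted p of the members. Its intensities were 12.6 and 15.5 in 320IWR cells, against 24.1 and 30.7 in COLO-320DM cells, and the lines did not overlap. The log2 fold change was -0.96 (interval -1.45 to -0.47, unadjusted p = 0.00417, adjusted p = 0.186 by limma), and the gene did not pass the test. All 4 values lie under the array's median of 41.5, and without detection calls it is not known how far they are above background. STC2, a secreted glycoprotein of the stress response, had a log2 fold change of 0.08.

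**Figure D3:**
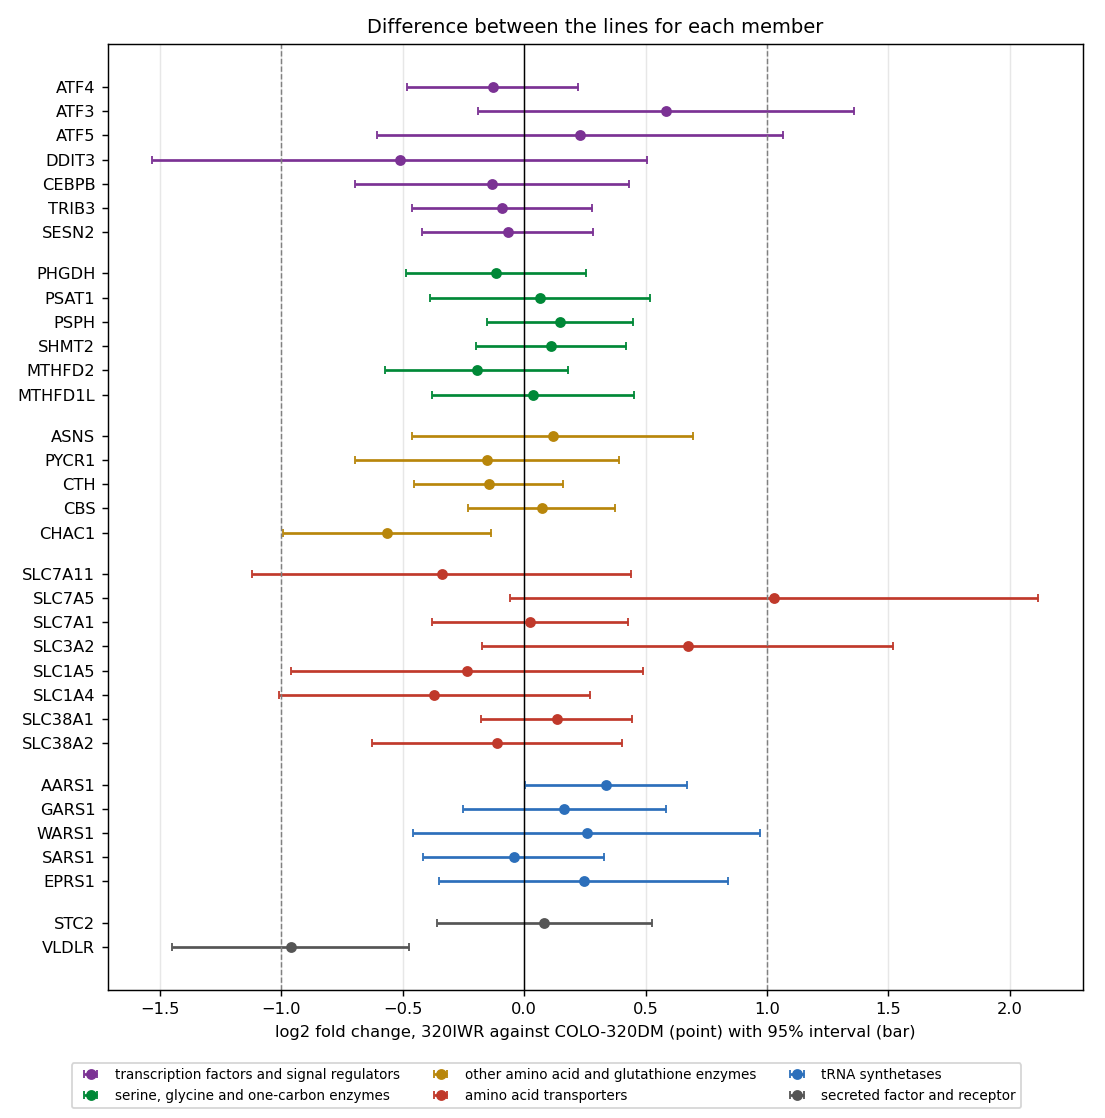
Log2 fold change of each measured member, 320IWR against COLO-320DM, as a point with its 95% interval from limma as a bar, coloured by role, with dashed lines at a 2-fold difference. For 25 of the 33 members the bar lies between the dashed lines, and 3 bars, those of AARS1, CHAC1 and VLDLR, lie off zero.

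Members with and without the promoter element overlapped widely in their differences. The 11 measured members with the core in a window had a median log2 fold change of 0.12, with 8 higher and 3 lower in 320IWR cells and a range of -0.57 to 0.67. The 18 measured members whose windows lacked it had a median of -0.08, with 7 higher and 11 lower and a range of -0.96 to 1.03, and the ranges overlap over most of their length. SLC7A5, with the largest log2 fold change, has an E-box and no such core in its RefSeq window.

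Further genes of the pathway outside the members gave no call either. Of 36 other ATF4 pathway genes, 33 were measured, and by limma 0 rose and 0 fell. At an unadjusted p under 0.05, 2 were higher (5.91% of all genes) and 5 were lower (6.36% of all genes). Their median log2 fold change was 0.05, with 19 higher and 14 lower. The largest differences were those of DDIT4, an mTORC1 inhibitor, with 221 and 187 in 320IWR cells, against 368 and 466 in COLO-320DM cells (log2 fold change -1.02, adjusted p = 0.153 by limma), and of HERPUD1, a factor of endoplasmic reticulum-associated degradation, with 1200 and 1142 in 320IWR cells, against 2378 and 1905 in COLO-320DM cells (-0.86, adjusted p = 0.164). Upstream, the 19 measured kinases and translation factors that set ATF4 synthesis had a median log2 fold change of 0.07, and again 0 passed limma's test. At an unadjusted p under 0.05, 2 were higher and 2 lower, beside the same shares of all genes. EIF2S3, the γ subunit of eIF2, had 2000 and 2285 in 320IWR cells, against 3648 and 4201 in COLO-320DM cells (log2 fold change -0.87, adjusted p = 0.142 by limma). EIF2AK3, which encodes PERK, the eIF2 kinase of the endoplasmic reticulum, had 412 and 316 in 320IWR cells, against 574 and 473 in COLO-320DM cells (-0.53, adjusted p = 0.474).

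Endoplasmic reticulum stress also raises ATF4, and the genes of its other branches, controlled through XBP1 and ATF6, were mostly lower in 320IWR cells. The list of these genes was chosen with earlier results of these data known, and its genes are not independent of each other. Of 19 measured genes, 18 were lower in 320IWR cells, where 9050 of all 19775 genes were. Both 320IWR arrays lay below both COLO-320DM arrays for 16 of them, where 17.5% of all genes did so. The median log2 fold change was -0.43, against 0.02 for all genes and 0.02 for the members. No gene of the list passed limma's test, and 9 were lower at an unadjusted p under 0.05, where 6.36% of all genes were. These are differences of level and not called falls. ERN1, which encodes the sensor IRE1α that splices XBP1, had 222 and 274 in 320IWR cells, against 596 and 458 in COLO-320DM cells (log2 fold change -1.08, adjusted p = 0.163 by limma). The cochaperone DNAJB9 had 214 and 247 in 320IWR cells, against 477 and 357 in COLO-320DM cells (-0.84, adjusted p = 0.233). HSPA5, the chaperone BiP, and HYOU1, its partner, picked as examples once their values were known, had log2 fold changes of -0.50 and -0.75. The list's median stayed between -0.51 and -0.32 when each array was left out in turn, and 17 or 18 genes were then lower in 320IWR cells. Whether these lower levels bear on the members was not tested.

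**Figure D4:**
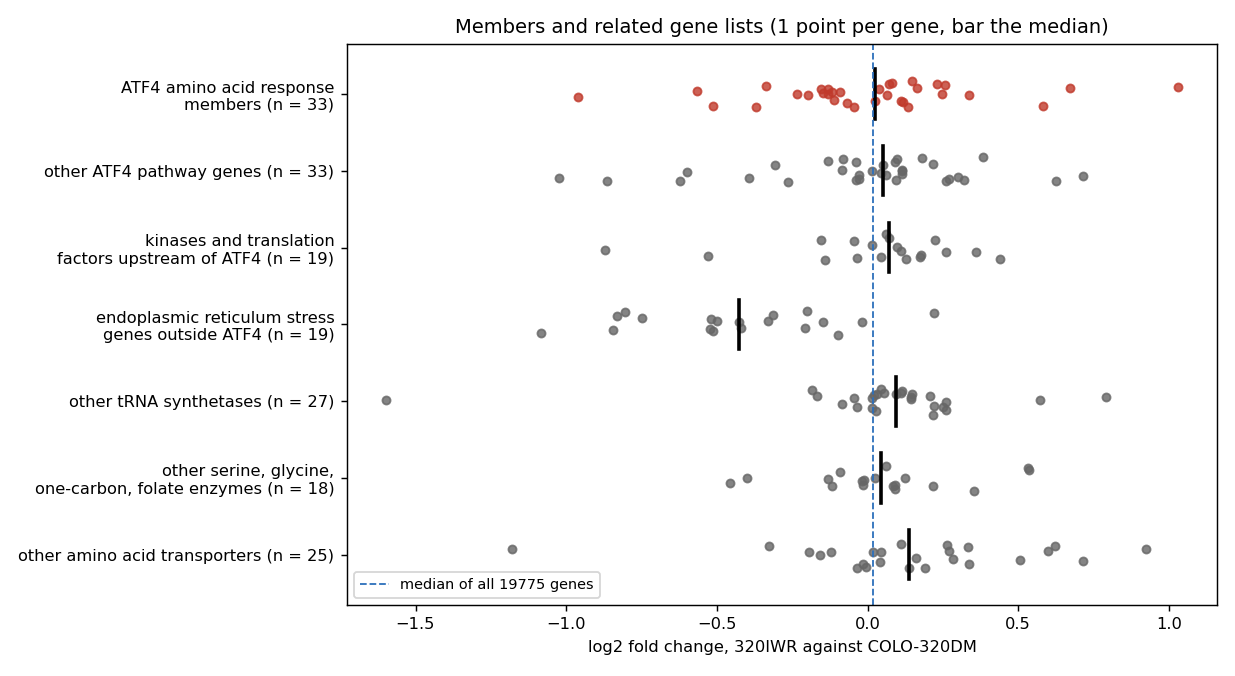
Log2 fold change, 320IWR against COLO-320DM, of each gene in 7 lists, with the 33 members in red and 6 related lists in grey, where the black bar is the list's median and the dashed line the median of all 19775 genes. The members centre on 0.02 and the endoplasmic reticulum stress genes on -0.43.

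For the arrays as a whole, the median intensity lay between 41.0 and 41.8 on the 4 arrays, and 61 of 54613 probe sets rose and 141 fell. Of 10 markers of colorectal epithelium, the intestinal factor gene CDX2 was bright in both lines, at 2723 and 2790 in 320IWR cells and 3403 and 3263 in COLO-320DM cells, while the epithelial genes CDH1 and EPCAM stayed under 41.5 in every array. KRT20 rose, and KRT8 and KRT18 fell (log2 fold changes 1.78, -2.26 and -1.67, limma adjusted p = 0.0412, 0.0155 and 0.0322). These calls were lost when any 1 array was left out, that of KRT20 also with a trended robust prior, and those of KRT20 and KRT18 also with log2(value + 16). Markers of leukocytes (4 measured genes), fibroblasts (6) and endothelium (5) gave 0 calls by limma and 0 at an unadjusted p under 0.05.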

How the data were processed

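The authors deposited probe set intensities of 4 arrays, made with RMA according to the submitters' notes (version not given in the sources used here), and the paper names GeneSpring GX for normalization. The values are linear and not centred, and their scale was read from their range. Log2 was taken with a floor of 1, and 62 control probe sets were left out. limma 3.58.1 in R 4.3.3 (lmFit, eBayes, constant prior) compared 320IWR with COLO-320DM cells, with no covariate beside the line, and Benjamini-Hochberg adjustment over 54613 probe sets. The methods name no test. Of these probe sets, 41091 have 1 gene symbol in the supplied annotation. The number of arrays limits the precision. Members and lists were chosen with earlier results of these data known, and no p-value was adjusted over a list. Array values are given for ATF4, ASNS, DDIT3, PHGDH, SLC7A11 and for members with an unadjusted p under 0.05 or a log2 fold change of at least 0.5 in size, and from each other list the called genes and up to 2 with the largest differences are named, beside HSPA5, HYOU1, CDX2, CDH1 and EPCAM, added after their values were seen. Alternatives were other normalizations, filters, pseudocounts, priors, thresholds, probe set choices, a replicate block and each array left out. With 1 array left out, the lone array is assumed to vary like those of the other line, and the replicate numbers are no longer balanced between the lines. The fit was also run on simulated arrays with independent noise. These lack the joint deviation of same-numbered arrays described below, so they do not show how the fit performs with it.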

Additional observations from a re-analysis of the deposited data

How the results depend on the processing

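No member was called by limma under any alternative run, whether in normalization (cyclic loess or arrays set to a common median), in the values used (dim probe sets removed, or log2(value + 16)), in the model (a trended robust prior or a replicate block), in the threshold (any fold, or an adjusted p under 0.01), in the choice of probe sets (all of them, or those with neither an _x_at nor an _s_at suffix) or with an array left out. Between 1 and 10 members then had an unadjusted p under 0.05, where counted, the 10 with the replicate block. Over all 19775 genes, limma called 108 higher and 220 lower with that block, against 38 and 79 without it. The share of all genes at an unadjusted p under 0.05 with the block is not given here. The 10 are therefore not read as particular to the members. Over all probe sets the count of 202 calls became 111 with log2(value + 16), 43 at an adjusted p under 0.01, 576 with the replicate block, and 0 to 63 when an array was left out. It was 0 without either 320IWR array, where 3756 and 3502 had an unadjusted p under 0.05. The median log2 fold change of the members was -0.090 once the _x_at and _s_at probe sets were removed, which leaves 10 members unmeasured, and -0.066 to 0.11 when an array was left out, the extremes coming without COLO-320DM replicate 1 and replicate 2.

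Same-numbered arrays deviated together from the means of their lines, with r = 0.661 across all probe sets and 0.818 across the 33 members, which are not independent replicates. In 19 members replicate 2 was above replicate 1 in both lines, and in 9 it was below (84.8% together). Over all 54613 probe sets it was above in 18862 and below in 19398 (70.1% together). The labels do not say what a number shares, and with 2 arrays a line this is a hint from the data only. The replicate block changed no member's call. Its smallest adjusted p among the members was 0.0462, for VLDLR, whose difference stays under 2-fold, and SLC7A5 and CHAC1 had 0.0817 and 0.0838.

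The log2 fold change changed sign for SLC7A1 under cyclic loess (-0.0070), for PSPH with all its probe sets (-0.0021), and for ASNS with all its probe sets (-0.078) and without those ending in _s_at (-0.27). The changes of PSPH and ASNS come from the dimmest probe set of each gene. When each array was left out in turn, the sign was not kept by ATF5 (-0.10 to 0.57), DDIT3 (-1.03 to 0.0036), CEBPB (-0.40 to 0.13), TRIB3 (-0.22 to 0.035), SESN2 (-0.18 to 0.042), PHGDH (-0.24 to 0.0080), PSAT1 (-0.14 to 0.27), MTHFD1L (-0.12 to 0.20), ASNS (-0.17 to 0.40), PYCR1 (-0.38 to 0.077), SLC7A11 (-0.74 to 0.066), SLC7A1 (-0.13 to 0.18), SLC1A5 (-0.58 to 0.11), SLC38A2 (-0.30 to 0.074), WARS1 (-0.074 to 0.59), SARS1 (-0.16 to 0.077) or STC2 (-0.11 to 0.27). These 17 members and PSPH aside, 15 members kept their sign in each alternative that gave them a value, among them ATF4, AARS1 and CHAC1 in all that were run, SLC7A5 and SLC3A2 in all but the one without _x_at and _s_at probe sets, and VLDLR in all but that one and the filter on dim probe sets, which leave it no value. Leaving out an array also leaves a replicate number in 1 line only. Between same-numbered arrays, ATF5 and WARS1 were higher in 320IWR cells both times. DDIT3, TRIB3, PHGDH, PYCR1, SLC7A11, SLC1A5 and SLC38A2 were lower both times. The others of the 17 differed in direction between the replicate numbers. The cause of the sign changes was not tested.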

Other observations

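Genes with the same biochemical roles as the members, but outside the member list, also gave no call in the fit without a replicate block, although 2 of those named below differed by more than any member. Of 27 other measured tRNA synthetases, 21 were higher and 6 lower in 320IWR cells (median log2 fold change 0.09), and limma called 0. At an unadjusted p under 0.05, 2 were higher (5.91% of all genes) and 1 was lower (6.36% of all genes). Without COLO-320DM replicate 1, which leaves replicate 1 in 320IWR cells only, 12 were higher and 15 lower (median -0.0093). FARS2, the mitochondrial phenylalanyl-tRNA synthetase, had intensities of 1237 and 988 in 320IWR cells, against 4288 and 2607 in COLO-320DM cells (log2 fold change -1.60, adjusted p = 0.155 by limma). FARSA, a subunit of its cytosolic counterpart, had 1023 and 1016 in 320IWR cells, against 518 and 669 in COLO-320DM cells (log2 fold change 0.79, adjusted p = 0.206). With the replicate number as a block, limma called FARS2 lower (adjusted p = 0.0453) and no other gene of the list. The lines did not overlap in either gene, and the differences point in opposite directions.

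Of 25 other measured amino acid transporters, 17 were higher and 8 lower in 320IWR cells (median log2 fold change 0.14), and limma called 0, with 5 higher and 1 lower at an unadjusted p under 0.05, where 5.91% of all genes were higher and 6.36% lower. SLC38A4, a carrier of neutral amino acids related to SLC38A1 and SLC38A2, had 799 and 822 in 320IWR cells, against 442 and 413 in COLO-320DM cells (log2 fold change 0.92, adjusted p = 0.0888 by limma). SLC7A8, the light chain LAT2, which also pairs with SLC3A2, had 329 and 578 in 320IWR cells, against 802 and 1220 in COLO-320DM cells (log2 fold change -1.18, adjusted p = 0.357), the opposite direction to SLC7A5. SLC7A8 was the 1 gene of this list called with the replicate block, as lower (adjusted p = 0.0452). Of 18 other measured enzymes of serine, glycine and folate metabolism, 10 were higher and 8 lower (median 0.04), and limma called 0. At an unadjusted p under 0.05, 1 was higher and 1 lower, beside the same shares of all genes. MTFMT, which formylates the mitochondrial initiator tRNA, had a log2 fold change of 0.54 and SLC25A32, the mitochondrial folate carrier, 0.53. Some of these genes stand in more than 1 list.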
